A study of Mus musculus with 8 samples.

Results

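The seminal vesicle secretory genes Svs2, Svs3a, Svs3b, Svs4, Svs5 and Svs6 encode the main proteins that the seminal vesicle adds to mouse semen. They were followed as a marker of seminal vesicle RNA in prostate samples, one array at a time. All probes whose annotated gene symbol was one of these 6 were taken. They were 7 of the 25697 probes of the beadchip, 2 for Svs2 and 1 for each other gene, among 16593 named genes. All 6 genes were above the background limit on at least 1 array and were therefore among the 13072 features tested.

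Total RNA of 8 C57Bl/6 mouse prostate samples was hybridised to Illumina expression beadchips, which report the brightness of a bead-bound probe for each transcript. The TRAMP KitW-sh tumour was taken at 24 weeks of age (n = 1). The TRAMP tumours of mice given cromolyn (sodium chromoglycate) from 8 weeks of age were taken at 24 weeks (n = 3). The untreated TRAMP tumours (n = 2) and the wild-type, non-tumour prostates (n = 2) were both taken at 30 weeks. TRAMP mice carry a transgene in which the probasin promoter drives viral T antigens in prostate epithelium. KitW-sh is a regulatory allele of Kit that leaves mice without mast cells, and cromolyn is a mast cell stabiliser. All tumour samples share the TRAMP transgene, and no KitW-sh or cromolyn sample without it was analysed here. Age goes with treatment and genotype, so the 24-week age and the loss or stabilising of mast cells cannot be told apart. Nothing in the labels says that replicates are separate animals, so a p-value here covers only sample-to-sample spread, part of which can be technical. The labels name the tissue as prostate and do not give the lobes or the limits of the dissection.

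The mouse seminal vesicles are paired glands that lie against the anterior prostate, also called the coagulating gland. Under androgen their epithelium secretes large amounts of a few small proteins. After ejaculation transglutaminase 4, the product of Tgm4 in the anterior prostate, cross-links several of these proteins into the copulatory plug. Svs2 and the Svs3 proteins are substrates of that reaction, and Svs2 also protects sperm in the uterus. Svs4 is the mouse counterpart of an abundant, androgen-regulated secretory protein of the rat seminal vesicle, and Svs5 and Svs6 are further small secreted members of the family.

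The 6 genes lie side by side on chromosome 2 at chr2:164235929-164334394 of the GRCm38.p6 build. The gene table used here lists no other protein-coding gene within those 98.5 kb. Their promoters were taken from RefSeq (GRCm38.p6) as 250 bases before to 50 bases after the gene start, and all 6 genes matched an entry. Over these windows Svs3a and Svs3b had 97.7% identical bases (293 of 300 aligned positions), and Svs5 and Svs6 had 93.8% (285 of 304). All other pairs had 41.1% to 57.8%. These near-identical pairs are shown because they are also the 4 promoters with an androgen receptor half-site. Capitals mark TATAAA, the letters of a TATA box, and TGTTCT or its reverse complement AGAACA, the letters of an androgen receptor half-site. Svs3a is at chr2:164289017-164289316 on the plus strand and Svs3b at chr2:164256594-164256893 on the minus strand. Svs5 is at chr2:164332515-164332814 and Svs6 at chr2:164316501-164316800, both on the plus strand.
Svs3a: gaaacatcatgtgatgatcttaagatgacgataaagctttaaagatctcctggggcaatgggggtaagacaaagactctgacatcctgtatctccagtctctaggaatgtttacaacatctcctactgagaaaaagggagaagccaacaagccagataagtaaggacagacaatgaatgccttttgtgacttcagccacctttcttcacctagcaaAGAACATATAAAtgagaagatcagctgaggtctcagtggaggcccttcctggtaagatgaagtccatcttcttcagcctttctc
Svs3b: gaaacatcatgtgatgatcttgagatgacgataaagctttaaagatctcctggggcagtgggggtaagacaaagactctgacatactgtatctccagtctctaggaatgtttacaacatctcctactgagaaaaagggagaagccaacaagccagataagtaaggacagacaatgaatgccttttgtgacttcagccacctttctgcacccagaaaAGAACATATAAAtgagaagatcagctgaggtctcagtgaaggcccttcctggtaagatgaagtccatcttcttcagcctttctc
Svs5: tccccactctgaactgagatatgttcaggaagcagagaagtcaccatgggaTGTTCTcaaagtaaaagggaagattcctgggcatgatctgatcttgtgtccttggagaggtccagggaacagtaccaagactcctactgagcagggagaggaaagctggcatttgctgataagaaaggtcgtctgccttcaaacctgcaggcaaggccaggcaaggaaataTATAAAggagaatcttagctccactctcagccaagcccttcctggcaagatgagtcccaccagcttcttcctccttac
Svs6: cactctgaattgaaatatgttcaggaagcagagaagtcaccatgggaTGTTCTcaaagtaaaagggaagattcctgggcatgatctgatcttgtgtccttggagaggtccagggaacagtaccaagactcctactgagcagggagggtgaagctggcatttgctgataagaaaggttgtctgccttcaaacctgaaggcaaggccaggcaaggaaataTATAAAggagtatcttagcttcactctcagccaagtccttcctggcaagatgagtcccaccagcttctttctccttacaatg
Both strands of each window were searched. TATAAA was found in 6 of 6 Svs promoters, and 14.2% of 27025 RefSeq mouse promoters of the same length hold it. TGTTCT was found in 4 of 6, in Svs3a, Svs3b, Svs5 and Svs6, against 19.0% of all promoters. The whole palindromic androgen response element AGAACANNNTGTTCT, of which that half-site is a part, was found in 0 of 6 and in 0.0037% of all promoters. These matches are a description of the letters and not of binding, and a window without a match says only that these letters are not in it.

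The deposited values are intensities on a linear scale. An intensity above 216.3 was counted as above background, and the corresponding limit on the log2 level used for testing was 7.01. The 8 arrays had been brought to the same distribution before deposit, with 56.6% of probes above the limit and a brightest value of 68806 on each. Values near that top have little room to differ. Across the 13072 features the arrays correlated at 0.939 to 0.975 between the KitW-sh tumour and the cromolyn tumours, at 0.984 between the untreated tumours and at 0.967 between the wild-type prostates. Correlations between any 24-week tumour and any 30-week sample were 0.714 to 0.825.

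Svs2 intensity was 184.7 in the KitW-sh tumour, 190.9, 187.7 and 199.4 in cromolyn tumours 1 to 3, 191.8 and 15131 in untreated tumours 1 and 2, and 39708.1 and 46011 in wild-type prostates 1 and 2. Both wild-type prostates and untreated tumour 2 were high, and the other 5 arrays lay within the background. The second Svs2 probe was high on the same 3 arrays, with 179.1 in the KitW-sh tumour, 175.4, 193.7 and 167.3 in cromolyn tumours, 198.9 and 22103.2 in untreated tumours, and 35013.4 and 40654.6 in wild-type prostates.

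Svs3a intensity was 166.5 in the KitW-sh tumour, 178.4, 196.5 and 177.5 in cromolyn tumours, 212.9 and 6000.9 in untreated tumours, and 678.2 and 851.2 in wild-type prostates. Untreated tumour 2 alone carried Svs3a far above both wild-type prostates. Svs3b, whose promoter is near-identical to that of Svs3a, had 170.6 in the KitW-sh tumour, 170, 206.9 and 166.7 in cromolyn tumours, 194.7 and 66874 in untreated tumours, and 18559.2 and 30906.6 in wild-type prostates. Untreated tumour 2 was again the highest of the 8 arrays, close to the brightest value any array could show. The wild-type prostates were well above background for both genes.

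Svs4 intensity was 196 in the KitW-sh tumour, 208.5, 778.4 and 162 in cromolyn tumours, 561.2 and 65119.4 in untreated tumours, and 60930.2 and 62050 in wild-type prostates. Svs5 had 182.2 in the KitW-sh tumour, 232.9, 949.1 and 206.3 in cromolyn tumours, 592.7 and 56864.8 in untreated tumours, and 53484.1 and 57690.7 in wild-type prostates. For these genes untreated tumour 2 and the wild-type prostates were alike, near the top of the scale. Cromolyn tumour 2 and untreated tumour 1 showed low but measurable amounts of both, while the other genes on those arrays were below the limit or, for Svs6 in cromolyn tumour 2, at it.

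Svs6 intensity was 216 in the KitW-sh tumour, 234.7, 217.3 and 238.2 in cromolyn tumours, 206.3 and 12210.4 in untreated tumours, and 4039 and 4452.9 in wild-type prostates. As for Svs3b, untreated tumour 2 was above the wild-type prostates. The 3 cromolyn values were just past the limit and the KitW-sh value just under it, so these arrays are at the edge of detection. The probe sequences were not at hand, so whether a probe of one copy also binds the transcript of the other was not tested.

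**Figure D1:**
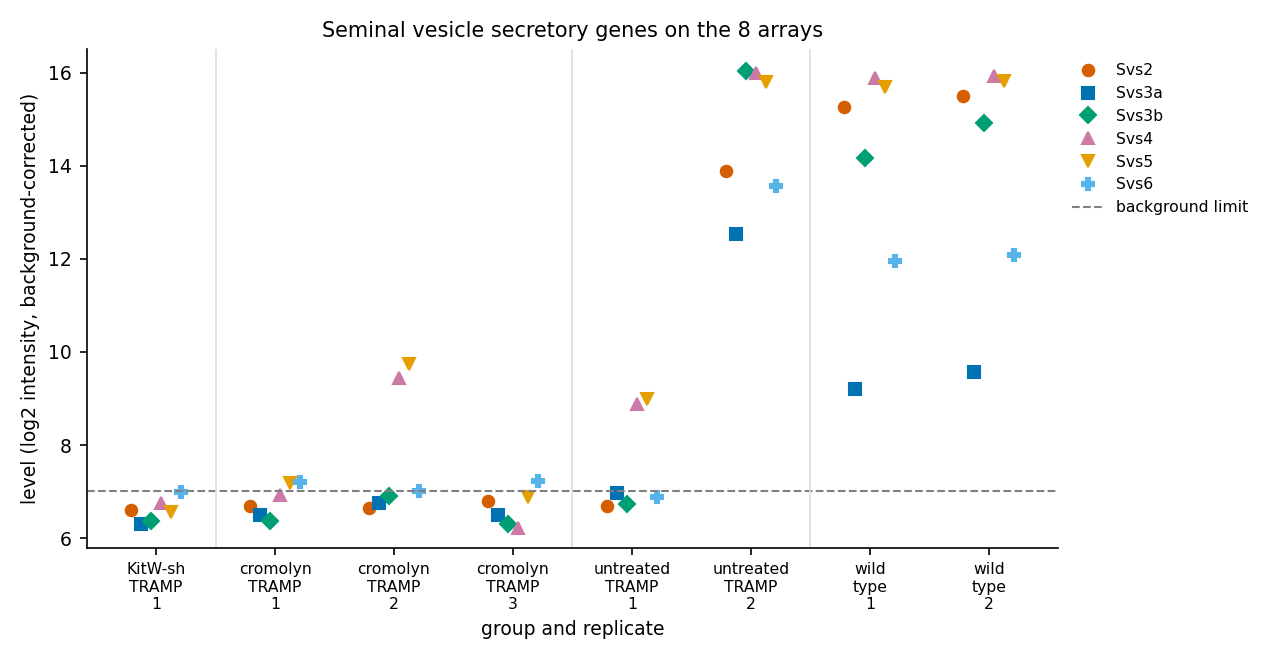
Level (log2 of the background-corrected intensity, vertical axis) of the 6 Svs genes on each of the 8 arrays, with 1 symbol per gene and a dashed line at the background limit of 7.01. Untreated tumour 2 and the 2 wild-type prostates hold all 6 genes above the limit, while the other 5 arrays hold 0 to 3 of them.

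Counted per array, 0 of 6 genes were above the limit in the KitW-sh tumour, 2, 3 and 1 in the cromolyn tumours, 2 and 6 in the untreated tumours, and 6 and 6 in the wild-type prostates. Summed over the 6 genes, intensity was 1116 in the KitW-sh tumour, 1215, 2536 and 1150 in the cromolyn tumours, 1960 and 222200 in the untreated tumours, and 177399 and 201962 in the wild-type prostates. Thus 3 of 8 arrays carried the whole family, and the labels put them in different groups. Whether that RNA came from seminal vesicle taken along with the prostate or from prostate cells that express these genes was not tested. In whole-tissue RNA, fewer cells of a kind and less RNA per cell cannot be told apart.

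The untreated tumours were set against each other because they carry the same label. The difference of tumour 2 minus tumour 1 was 9.29 on the log2 scale for Svs3b, the largest of all 13072 features. It was 7.17 for Svs2, 7.10 for Svs4, 6.81 for Svs5, 6.68 for Svs6 and 5.56 for Svs3a, at ranks 5, 6, 8, 9 and 11. All 6 genes were thus among the 12 features that differed by at least 5 in that direction, while 3 features differed by as much in the other. The other 6 features of the 12 were Pate4, Spink1, Svs1 and Ceacam10, which are seminal vesicle secretory genes too, Cyp4a12a, a fatty acid hydroxylase, and Wfdc18, which encodes a small secreted protein. At a difference of at least 1, 101 features were higher in tumour 2 and 78 in tumour 1. The wild-type pair had more features that far apart, 609 higher in prostate 2 and 175 in prostate 1. At a difference of at least 5 it had 2 and 3. The wild-type prostates differed from each other by 0.03 (Svs4) to 0.74 (Svs3b) for the 6 genes. Each untreated value is 1 array, so these differences are given without a test.

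**Figure D2:**
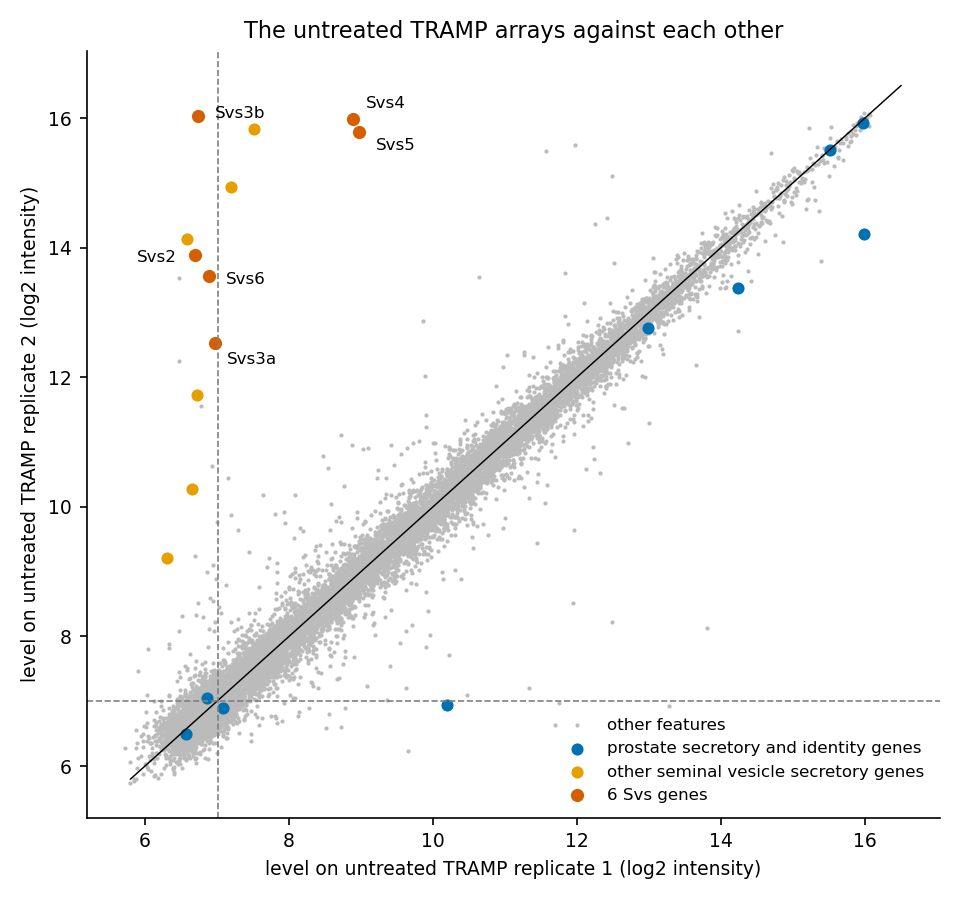
Level of each of the 13072 features in untreated tumour 2 (vertical axis) against untreated tumour 1 (horizontal axis), both as log2 intensity, with dashed lines at the background limit and a diagonal of equality. The 6 Svs genes and the other seminal vesicle secretory genes stand at the upper left, while most of the prostate secretory genes lie on or near the diagonal.

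The untreated TRAMP tumours were first set against the wild-type prostates, the comparison of tumour with normal tissue at one age. None of the 6 genes passed the test, 0 of 6 at an adjusted p under 0.05 in limma with Benjamini-Hochberg adjustment, where 6.61% of all features were called, and 1 of 6 had an unadjusted p under 0.05 (21.5% of all features). Svs2 was the one whose groups did not overlap, with a level of 10.29 ± 5.07 in untreated tumours and 15.38 ± 0.15 in wild-type prostates (SD, n = 2 each). Its difference of -5.09 ± 1.98 (SE) had an adjusted p of 0.202 in limma. That count of 1 of 6 genes lower without overlap compares with 30% of all features. The other differences ranged from -3.47 ± 2.17 for Svs4 to 0.36 ± 1.54 for Svs3a, with adjusted p between 0.417 and 0.935. The median over the 6 genes was -3.27, against -0.01 over all features.

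What that comparison showed depended on which untreated tumour was kept, and a lone sample was then assumed to vary like the other groups. Leaving out either of them takes the gap between them out of the spread, so calls and p-values of such a fit are no test. Only the differences are given. Without untreated tumour 2, untreated TRAMP differed from wild type by -8.68 for Svs2, -7.80 for Svs3b, -7.02 for Svs4 and -6.78 for Svs5. Svs6 differed by -5.13 and Svs3a by -2.42.

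Without untreated tumour 1, 1 of 6 genes passed, against 2.03% of all features, and it was higher in the untreated tumour. That gene was Svs3a, with a difference of 3.14 ± 0.29 and a limma adjusted p of 0.0156. Svs6 differed by 1.55 ± 0.25 (limma adjusted p 0.0503) and Svs2 differed by -1.50 ± 0.25 (0.054), and both just missed the threshold. Svs3b differed by 1.48 ± 0.43 (limma adjusted p 0.204), and Svs4 and Svs5 by 0.08 and 0.03. On this single array, untreated tumour 2, Svs3a, Svs3b and Svs6 lay above both wild-type prostates and Svs2 lay below both. Svs4 and Svs5 were close to the brightest value and had little room for a higher one.

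The cromolyn tumours were next set against the wild-type prostates. All 6 genes were lower in every cromolyn tumour than in either wild-type prostate, where 31.1% of all features were, and 4 of 6 passed the test, where 22.8% of all features were called lower. Svs2 was at least 332-fold lower in the cromolyn tumours, in none of which it was above background (limma adjusted p 0.00834). Svs3b was at least 185-fold lower (limma adjusted p 0.0305). Bounds of this kind set the wild-type mean level against the background limit.

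Svs4 had a level of 7.52 ± 1.69 in cromolyn tumours (SD, n = 3) and 15.91 ± 0.02 in wild-type prostates (SD, n = 2), a difference of -8.38 ± 1.98 with a limma adjusted p of 0.0136. Svs5 had 7.94 ± 1.57 in cromolyn tumours and 15.76 ± 0.08 in wild-type prostates, a difference of -7.82 ± 1.89 (limma adjusted p 0.0149). The wide spread of both genes in the cromolyn group came from tumour 2. Svs6 missed the threshold at -4.87 ± 1.68 (limma adjusted p 0.053), as did Svs3a, which was at least 5.22-fold lower (0.149). The median over the 6 genes was -7.92, against 0.03 over all features. Since the spread is pooled over all arrays, the distance between the untreated tumours entered these tests too. Leaving out either untreated tumour gave 6 of 6 genes lower (38.4% of all features called). Leaving out wild-type prostate 1 gave 1 of 6 (37.1%), Svs2, and leaving out wild-type prostate 2 gave 0 of 6 (32.8%).

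The KitW-sh tumour showed none of the 6 transcripts above background, and against wild type all 6 genes were lower without overlap, as were 42.8% of all features. The test called 3 of 6, where 15.2% of all features were called lower. Svs4 was at least 477-fold lower (limma adjusted p 0.041), Svs5 at least 431-fold (0.0346) and Svs2 at least 332-fold (0.0348). Svs3b was at least 185-fold lower with a limma adjusted p of 0.095, Svs6 at least 32.3-fold with 0.14 and Svs3a at least 5.22-fold with 0.263, and these were not called. The count was 6 of 6 when either untreated tumour was left out (22.7% of all features called). It was 0 of 6 when wild-type prostate 1 (24.6%), wild-type prostate 2 (22.6%), cromolyn tumour 1 (32.6%) or cromolyn tumour 3 (29.3%) was left out.

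Against the untreated tumours, with which the design sets both mast cell conditions side by side, no Svs gene passed. These comparisons share the untreated arrays, as the earlier ones share the wild-type arrays. For cromolyn 0 of 6 were called, where 36.9% of all features were, and 1 of 6, Svs4, had an unadjusted p under 0.05 (46.2% of all features). Svs4 differed by -4.92 ± 1.98 (limma adjusted p 0.0979) and Svs5 by -4.45 ± 1.89 (0.113), and the other adjusted p lay between 0.128 and 0.202. Svs3a alone was lower without overlap, which held for 30.4% of all features. The median difference was -4.01, against 0.05 over all features.

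For KitW-sh against the untreated tumours 0 of 6 were called, where 22.6% of all features were, and 0 of 6 had an unadjusted p under 0.05 (35.7% of all features). The KitW-sh value was below both untreated values for 5 of 6 genes, all but Svs6, as it was for 43.7% of all features. The largest bound was for Svs4, at least 43.1-fold lower than the untreated mean (limma adjusted p 0.179). The median difference was -4.35, against 0.01 over all features.

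Here too 1 array decided the count. Without untreated tumour 1, all 6 genes were lower in the cromolyn tumours (18.6% of all features called) and all 6 in the KitW-sh tumour (9.32%), with limma adjusted p up to 0.00845 for cromolyn and 0.0213 for KitW-sh. Without untreated tumour 2, 0 of 6 were called for cromolyn (19.1%) and 0 of 6 for KitW-sh (9.22%).

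Between the 24-week tumours, KitW-sh against cromolyn, 0 of 6 genes were called in limma, where 0.0229% of all features were, and 0 had an unadjusted p under 0.05, where 5.42% of all features had. Svs2, Svs3a and Svs3b were below background in both. In the KitW-sh tumour Svs5 was at least 1.91-fold lower than the cromolyn mean, Svs4 at least 1.43-fold and Svs6 at least 1.1-fold. Of the 3 cromolyn tumours, 2 had Svs5, 1 had Svs4 and 3 had Svs6 above the limit. The 95% intervals of these differences were wide, from -7.09 to 4.33 for Svs5 and from -6.75 to 5.22 for Svs4. The cromolyn mean of Svs4 and Svs5 was raised by tumour 2.

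**Figure D3:**
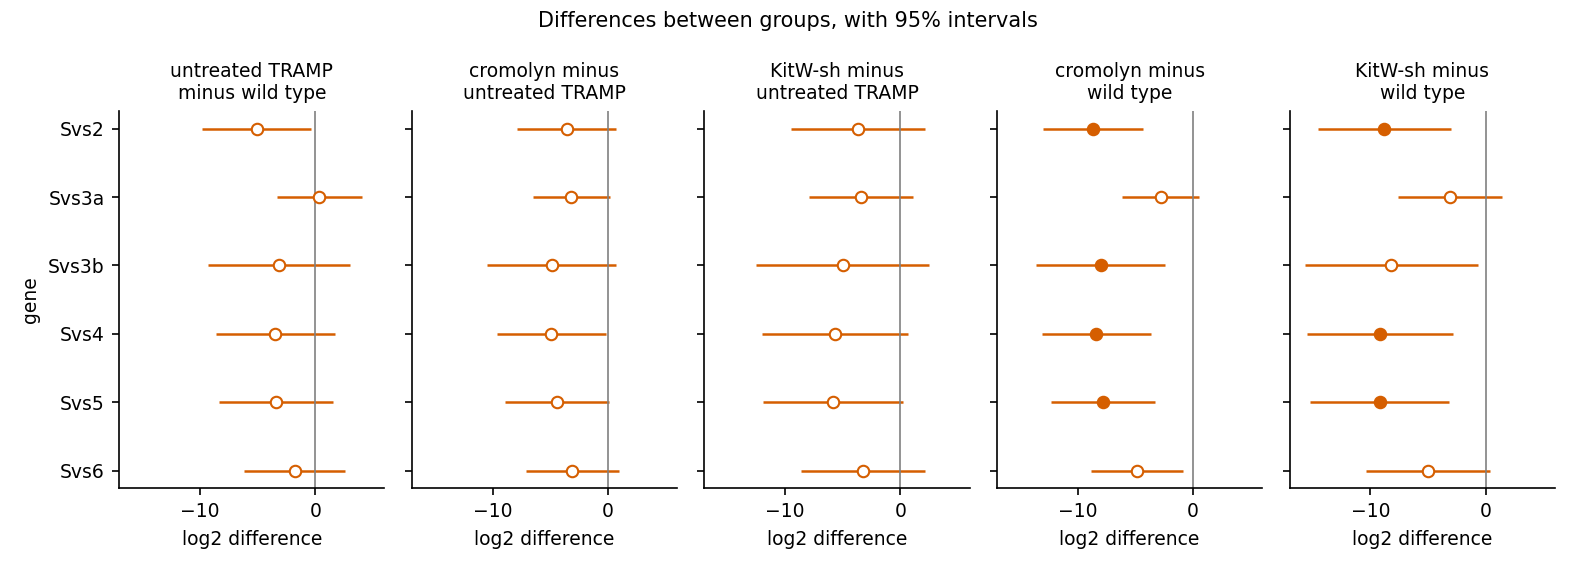
Difference in level (log2, horizontal axis) of each Svs gene in 5 comparisons, with points for the fitted values, lines for 95% intervals from limma and filled points where the adjusted p was under 0.05. Filled points appear only in the comparisons with wild type of the cromolyn tumours (4 of 6) and the KitW-sh tumour (3 of 6). Where the group named first had no array above the limit, the point is a fit to background values and the bounds in the text apply.

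Other genes of seminal vesicle secretion were looked at to see whether the Svs values stood alone. Of 10 such genes 8 had a probe and 6 were tested, Svs1, Pate4, Spink1, Sva, Ceacam10 and Sval2. Pate4, also known as SVS VII, a protein that binds sperm, had 173.9 in the KitW-sh tumour, 161.3, 218.5 and 169.4 in cromolyn tumours, 271.7 and 58185.6 in untreated tumours, and 57380.9 and 64232.2 in wild-type prostates. Svs1, an amine oxidase-like plug protein, had 169.9 in the KitW-sh tumour, 172.4, 173 and 169.7 in cromolyn tumours, 183 and 18064.3 in untreated tumours, and 4358.2 and 8218 in wild-type prostates. Like the Svs genes, both were high in untreated tumour 2 and the wild-type prostates, with untreated tumour 1 at or near background. Sva, Ceacam10 and Sval2 had 187.9, 193 and 167.1 in untreated tumour 1 and 1322.4, 3491.9 and 677.9 in untreated tumour 2. In the wild-type prostates Sva and Ceacam10 were above the limit and Sval2 was not. Ceacam10 had a level of 11.73 in untreated tumour 2 and a mean of 8.76 in wild-type prostates.

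Spink1, a trypsin inhibitor secreted by the seminal vesicle and by other glands, departed from the pattern of the Svs genes. Its intensity was 18152.1 in the KitW-sh tumour, 184.6, 199.3 and 1147.8 in cromolyn tumours, 234.1 and 31273.4 in untreated tumours, and 61099.6 and 12210.4 in wild-type prostates. The KitW-sh tumour thus held Spink1 at a level within the range of the wild-type prostates, while its Svs genes were below background. Above the limit were 1 of 8 genes in the KitW-sh tumour, 0, 1 and 1 in the cromolyn tumours, 2 and 6 in the untreated tumours, and 5 and 5 in the wild-type prostates. Against wild type, 3 of 6 were called lower in the cromolyn tumours, where 22.8% of all features were. These were Pate4 at -9.36 ± 2.10 (limma adjusted p 0.0112), Svs1 at least 45.8-fold lower (0.0382) and Spink1 at -6.91 ± 2.25 (0.0438). In the KitW-sh tumour 1 of 6 was called lower, where 15.2% of all features were. It was Pate4, at least 471-fold lower (limma adjusted p 0.0444). Against the untreated tumours 0 of 6 were called in limma for cromolyn (36.9% of all features) and 0 of 6 for KitW-sh (22.6%). At an unadjusted p under 0.05 in limma there were 1 of 6 for cromolyn (46.2%) and 0 of 6 for KitW-sh (35.7%).

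Prostate secretory and identity genes were set beside the Svs genes. Of 10 such genes 9 had a probe. Tgm4, whose product cross-links the Svs proteins, had 202.4 in the KitW-sh tumour, 213.4, 188.3 and 177.6 in cromolyn tumours, 64622.1 and 19062.5 in untreated tumours, and 64622.1 and 66283.1 in wild-type prostates. Defb50, a beta-defensin of the prostate, had 3850.8 in the KitW-sh tumour, 169.1, 168.9 and 1783 in cromolyn tumours, 64232.2 and 62617.4 in untreated tumours, and 66874 and 55982.1 in wild-type prostates. Msmb, the microseminoprotein of prostatic fluid, had 1023 in the KitW-sh tumour, 201.5, 184.4 and 572.3 in cromolyn tumours, 47138.6 and 46571.6 in untreated tumours, and 62406.4 and 45350.7 in wild-type prostates. Untreated tumour 1 thus had Tgm4, Defb50 and Msmb values within or near those of the wild-type prostates. Its Svs genes were below the limit or, for Svs4 and Svs5, low at 561.2 and 592.7. Acpp, prostatic acid phosphatase, differed from these, with 229.1 in the KitW-sh tumour, 172.2, 187.3 and 194.1 in cromolyn tumours, 204.1 and 219.9 in untreated tumours, and 784.9 and 603.1 in wild-type prostates. It was lower in untreated tumours than in wild type by -2.27 ± 0.22 (SE, limma adjusted p 0.0027), the 1 of 9 genes called there (2.88% of all features called lower). Sbp was below the limit in both untreated tumours, at 182.8 and 178.2, and differed by -3.46 between the wild-type prostates (2 minus 1).

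In untreated tumour 2 Tgm4 was lower than in untreated tumour 1, the opposite of the Svs genes. Pbsn, which encodes probasin and whose promoter drives the TRAMP transgene, also ran opposite. It had 175.7 in the KitW-sh tumour, 187.1, 186.9 and 170.1 in cromolyn tumours, 1260.8 and 210.5 in untreated tumours, and 5890.2 and 2488.4 in wild-type prostates, so that both untreated tumours were below both wild-type prostates. Of the 9 genes, 6 were above the limit in the KitW-sh tumour, 1, 1 and 5 in the cromolyn tumours, 7 and 6 in the untreated tumours, and 9 and 7 in the wild-type prostates. Cromolyn tumours were called lower than untreated tumours for 5 of 9 (18% of all features) and lower than wild type for 7 of 9 (22.8%), and the KitW-sh tumour for 2 of 9 (11.2%) and 4 of 9 (15.2%). Tgm4 was at least 272-fold lower than in untreated tumours in both, with limma adjusted p of 7.59e-05 for cromolyn and 0.000673 for KitW-sh.

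**Figure D4:**
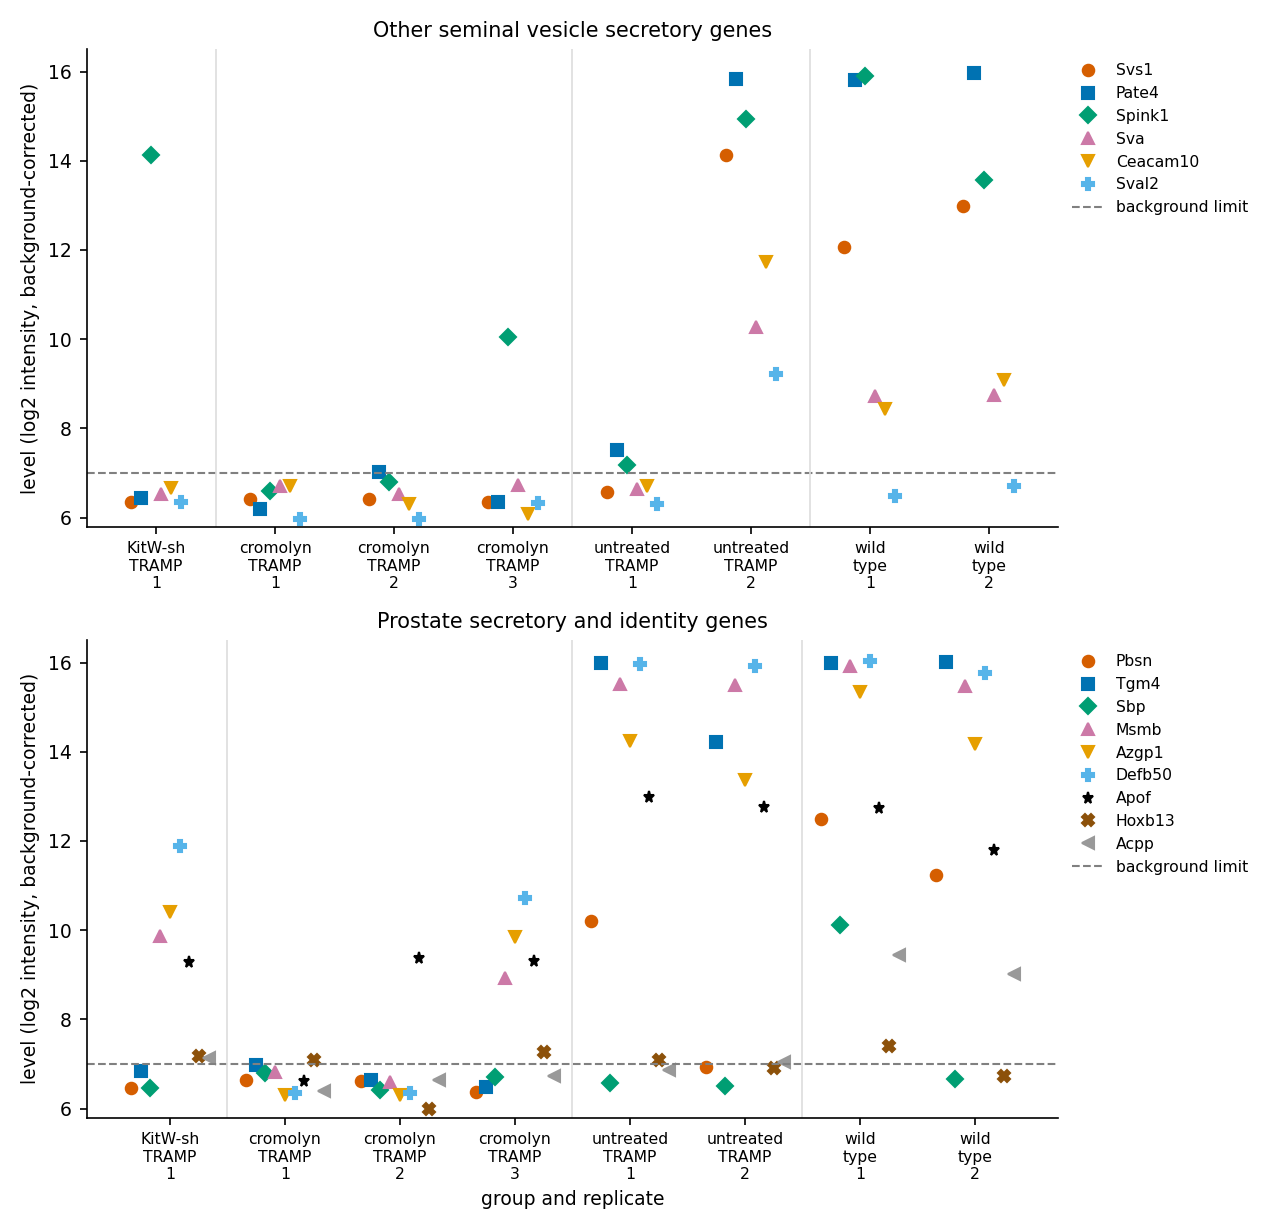
Level (log2 of the background-corrected intensity, vertical axis) of 6 other seminal vesicle secretory genes (upper panel) and 9 prostate secretory and identity genes (lower panel) on each array, with a dashed line at the background limit of 7.01. Untreated tumour 1 holds Tgm4, Msmb and Defb50 near the top of the scale but Pate4 and Svs1 at or near the limit, and Spink1 is high in the KitW-sh tumour.

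Epithelial and smooth muscle genes were set beside the Svs genes as a gauge of tissue makeup. Krt8, a keratin of luminal epithelium, had 1522.6 in the KitW-sh tumour, 229.3, 208.9 and 937.5 in cromolyn tumours, 28419.2 and 32808.4 in untreated tumours, and 16851 and 24922.3 in wild-type prostates. Summed over 4 genes, 3 keratins and Cdh1 (E-cadherin), intensity was 3861 in the KitW-sh tumour, 746 to 2973 in cromolyn tumours, 63874 and 70034 in untreated tumours, and 37431 and 49359 in wild-type prostates. Summed over 5 smooth muscle genes it was 15107 in the KitW-sh tumour, 4129 to 9587 in cromolyn tumours, 116112 and 97976 in untreated tumours, and 126690 and 137638 in wild-type prostates. Of the 4 epithelial genes, 4 were called lower in cromolyn tumours and 3, all but Krt19, in the KitW-sh tumour, against untreated tumours and likewise against wild type. All 5 smooth muscle genes were called lower in each mast cell condition in both comparisons. Of all features, 18% were called lower in cromolyn tumours and 11.2% in the KitW-sh tumour against untreated tumours. Against wild type these shares were 22.8% and 15.2%. The part of the epithelial and smooth muscle shifts in the Svs differences of the 24-week tumours was not tested.

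Neighbouring organs of the same duct were looked at through 6 genes of the epididymis and vas deferens with a probe. Their summed intensity was 1217 in the KitW-sh tumour, 1235 to 1295 in cromolyn tumours, 1251 and 1227 in untreated tumours, and 1598 and 1226 in wild-type prostates. Gpx5 and Lcn5 were not above background on any array. Cst11 (278.3 and 300.2) and Lcn8 (251 and 221.5) were slightly above the limit in untreated tumours 1 and 2. In the summed intensity untreated tumour 2 did not stand apart from untreated tumour 1. Above the limit were 3 of the 6 genes in wild-type prostate 1, with a highest level of 8.6. In wild-type prostate 2 it was 1, at 7.66, and on each tumour array 2. Adam7 differed by -1.73 between the wild-type prostates (2 minus 1). Of the transcription factors of the Wolffian duct, from which the seminal vesicle arises, Pax2 reached 249.5 and 260 in the wild-type prostates and was below the limit on all other arrays, including untreated tumour 2. Of 5 listed such factors 4 had a probe and 3 were tested, and Lhx1 ran the other way, with 426.1 in the KitW-sh tumour, 259.9, 582.1 and 368.5 in cromolyn tumours, 165.5 and 178.8 in untreated tumours, and 168.1 and 164.1 in wild-type prostates. It was called higher in the cromolyn and KitW-sh tumours than in untreated tumours (limma adjusted p 0.0157 and 0.0433) and than in wild type (0.0102 and 0.0293), by at least 2.24-fold for cromolyn and 2.63-fold for KitW-sh. Foxa1, a transcription factor of prostate epithelium, was at 17303.4 in the KitW-sh tumour, 15838.2, 8897.4 and 16497.7 in cromolyn tumours, 16597.6 and 14331.4 in untreated tumours, and 12974 and 8875.9 in wild-type prostates.

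The genes that flank the Svs cluster on chromosome 2 include many of the WAP-domain inhibitors of proteases. Of 26 listed neighbours 21 had a probe and 16 were tested. Wfdc15b, the nearest measured gene outside the cluster on the Svs2 side, had 183 in the KitW-sh tumour, 188.5, 188.3 and 185.8 in cromolyn tumours, 3727.2 and 12554.6 in untreated tumours, and 10317.5 and 9707.4 in wild-type prostates. It was called lower in the cromolyn and KitW-sh tumours than in the untreated ones, by at least 52.4-fold in each (limma adjusted p 0.000224 and 0.00152), which none of the Svs genes was. Untreated tumour 1 held Wfdc15b well above background while Svs2 was within it.

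Other neighbours had patterns of their own. Sdc4, a cell surface proteoglycan, had 859.1 in the KitW-sh tumour, 229.4, 284.5 and 576.6 in cromolyn tumours, 5380.7 and 4321.9 in untreated tumours, and 5881.3 and 6402.5 in wild-type prostates, with no gap between the untreated tumours. Wfdc3 had 829.3 in the KitW-sh tumour, 201.7, 223.2 and 790 in cromolyn tumours, 277.2 and 379.3 in untreated tumours, and 41450.4 and 10988.3 in wild-type prostates, and it was lower in untreated tumours than in wild type by -6.50 ± 0.98 (limma adjusted p 0.0132). Stk4, a kinase gene beyond the cluster, lay between 3164.7 and 4394.2 on all 8 arrays. In all, 12 of 16 neighbours were lower in cromolyn tumours than in wild type and 8 of 16 in the KitW-sh tumour, where 22.8% and 15.2% of all features were called lower. The median differences were -1.70 and -1.37, against 0.03 and 0 over all features.

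**Figure D5:**
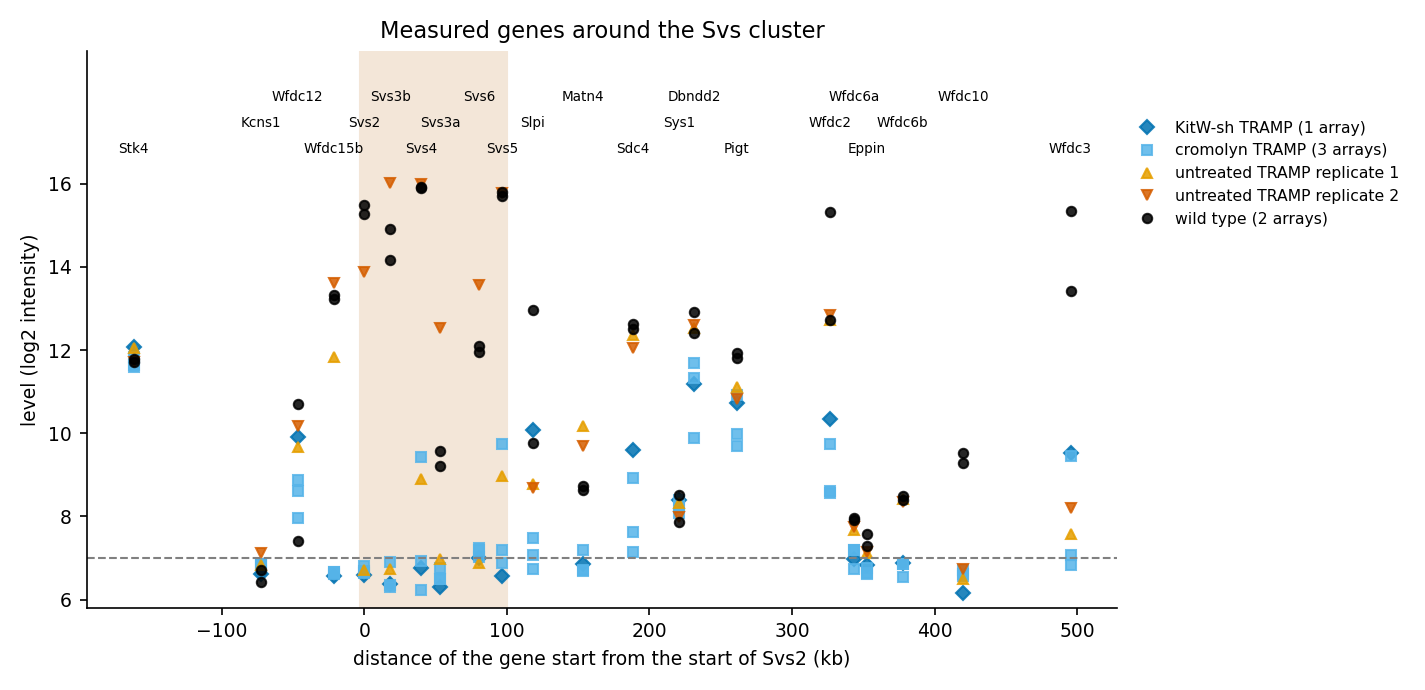
Level (log2 intensity, vertical axis) of the measured genes around the Svs cluster by distance of the gene start from that of Svs2 in kb (horizontal axis), with the cluster shaded and a dashed line at the background limit. Inside the cluster untreated tumour 1 lies with the 24-week tumours, whereas at Wfdc15b, Sdc4 and Wfdc2 it lies with or near the other 30-week samples. At Wfdc10 and Wfdc3 both untreated tumours lie with or near the 24-week tumours, below wild type.

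Genes with a pattern like that of the Svs genes were sought among 1951 features whose level spanned at least 3 on the log2 scale over the 8 arrays. Likeness was Pearson's r with the mean level of the 6 genes, which was 6.60 in the KitW-sh tumour, 6.81, 7.75 and 6.66 in cromolyn tumours, 7.53 and 14.63 in untreated tumours, and 13.70 and 13.97 in wild-type prostates. Since 3 arrays are high and 5 low, r mostly measures whether a gene separates the same arrays, and it is given as a description. In all, 24 features had an r of at least 0.9. The 10 highest named genes were Pate4 (r = 0.996), Svs1 (0.991), Anxa9 (0.987), Cyp4a12a (0.983), Fam3b (0.972), Kcnn4 (0.970), Sva (0.954), Spink11 (0.952), Ccnd1 (0.948) and Eif2s3y (0.947). Leaving out either untreated tumour kept 1 of the 10 in the list, so it rests on the contrast between those arrays.

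Cyp4a12a had 183.6 in the KitW-sh tumour, 210.9, 161.7 and 183.6 in cromolyn tumours, 176.6 and 11933.1 in untreated tumours, and 17617.5 and 13589.3 in wild-type prostates. Anxa9, an annexin gene, had 193.3 in the KitW-sh tumour, 225.6, 234.4 and 245.7 in cromolyn tumours, 287 and 1255.5 in untreated tumours, and 1394.1 and 1231.6 in wild-type prostates. Both were low on the same 5 arrays as the Svs genes. Ccnd1, which encodes cyclin D1, was above background on every array, with 1162.5 in the KitW-sh tumour, 804.3, 1366.7 and 1071.8 in cromolyn tumours, 4949.7 and 21333.1 in untreated tumours, and 23947 and 27483.4 in wild-type prostates.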

How the data were processed

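The authors deposited, for every probe on every array, a linear intensity. BeadStudio is the tool named in the submitters' processing notes, without a version. Across the 8 arrays the sorted intensities were no more than 0.0489 apart (log2), the mark of quantile normalization, and the lowest lay at 124 to 127, so background was still in them. A second table was left out, since its 8 signal columns carry slide positions and no sample can be read from them.

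The intensities were corrected with normexp in limma (offset 50), quantile normalized and logged. The limit of 216.3 is the value that a share of 0.01 of a background with mode 181 and SD 15.2 would exceed. A gene was represented by its brightest probe on average, and the 13072 features past the limit on 1 or more arrays were tested. R 4.3.3 and limma 3.58.1 were used, with a mean for each group, all 8 arrays sharing the spread (residual df 4, prior df 2.62), two-sided p-values and Benjamini-Hochberg adjustment within each of 6 comparisons. The spread of the single KitW-sh array was taken from the other groups. Gene names came from the platform annotation, and 23962 probes matched the GRCm38.p6 gene table. Promoter pairs were aligned with Biopython 1.88. The fit was tested on simulated data.

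By rule all 6 Svs genes are named, members of other lists may be named with their level where above background, and the 10 named genes of highest r are named as most like them. Not all such list members are named, and Gpx5, Lcn5 and Klk1b1, below background, fall outside the rule and were chosen after their values were seen. Members and lists were chosen with earlier results of these data known. The number of arrays limits the precision. Alternatives covered background correction, normalization, filter, moderation, probe choice, samples in the fit, replicate block and each array left out.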

Additional observations from a re-analysis of the deposited data

How the results depend on the processing

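The number of Svs genes called moved with single arrays more than with the processing. Leaving out each array in turn, 0 to 4 of 6 were called for untreated TRAMP against wild type, 0 to 6 in each comparison of cromolyn or KitW-sh tumours with untreated TRAMP or with wild type, and 0 between KitW-sh and cromolyn. In the same fits the difference of untreated TRAMP from wild type ran from -2.42 to 3.14 for Svs3a, -7.80 to 1.48 for Svs3b, -7.02 to 0.08 for Svs4, -6.78 to 0.03 for Svs5 and -5.13 to 1.55 for Svs6, its ends set by the untreated tumours. The cromolyn difference from untreated TRAMP ran from -7.16 to 0.01 for Svs2 and -6.42 to 0.26 for Svs6, and that of KitW-sh from -6.56 to 0.11 for Svs6. Between KitW-sh and cromolyn that of Svs4 ran from -1.42 to 0.19, its upper end without cromolyn tumour 2. With only the compared groups in the fit, 6 of 6 were called for KitW-sh against wild type, since the gap between the untreated tumours then leaves the spread. With the replicate number as a block 0 of 6 were called there and 3 of 6 for cromolyn against wild type, and between KitW-sh and cromolyn Svs4 turned to 0.19 and Svs6 to 1. The block is fitted from the differences between replicates 1 and 2 within each group, so the gap between the untreated tumours entered these values. Equal numbers are not stated to pair samples, and deviations of same-numbered arrays correlated at 0.002 to 0.074. In a group of 2 arrays the deviations mirror each other, so these values cannot settle whether same-numbered samples were paired. By Spearman's rho 1 of the 10 genes most like the Svs genes stayed. Without background correction the span of Svs2 over the arrays was 7.96 in place of 8.89. Under offset 16, no correction, cyclic loess, median centring, other filters, trended moderation and single probes, every count of called Svs genes stayed within 1.5 times its value and no direction turned, except that the second Svs2 probe gave 0.01 and the first -0.11 between KitW-sh and cromolyn, where both were below background.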

Other observations

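Kallikreins, secreted serine proteases, were measured through 6 genes of the Klk1 family. Of these Klk1, Klk1b21, Klk1b22 and Klk1b27 were highest on cromolyn tumour 2, the cromolyn array that also held Svs4 and Svs5 clearly above the limit. Klk1 had 192.1 in the KitW-sh tumour, 175.7, 11628.3 and 180.9 in cromolyn tumours 1 to 3, 176.8 and 215.9 in untreated tumours, and 185.9 and 174.7 in wild-type prostates. Klk1b27 had 191.8 in the KitW-sh tumour, 205.4, 15151.4 and 213.7 in cromolyn tumours, 771 and 1256 in untreated tumours, and 246.9 and 216.9 in wild-type prostates. Klk1b21 had 170.1 in the KitW-sh tumour, 162.1, 668.2 and 172.7 in cromolyn tumours, 286.1 and 329.3 in untreated tumours, and 195.1 and 193.7 in wild-type prostates. Klk1b26 was above the limit in the untreated tumours only, at 333.6 and 266.2. Klk1b22 reached 544.5 in cromolyn tumour 2 and was below the limit on the other 7 arrays, as was Klk1b1 on all 8. These kallikreins belong to one family, and their sequences were not compared. Whether a probe of one also binds the transcript of another was not tested, so their values are uncertain as single genes.

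Clu, which encodes the secreted chaperone clusterin, had 7767 in the KitW-sh tumour, 508.2, 1098.9 and 8119.7 in cromolyn tumours, 65119.4 and 68806.3 in untreated tumours, and 31043.8 and 58185.6 in wild-type prostates. Unlike the Svs genes it was high in both untreated tumours. Both values were at or near the brightest value of 68806, where they have little room to differ. Of the androgen responsive genes, Tmprss2, a membrane serine protease, had 988.3 in the KitW-sh tumour, 175.2, 184.7 and 624.4 in cromolyn tumours, 16674.2 and 11452.2 in untreated tumours, and 23784.4 and 21095.8 in wild-type prostates. Fkbp5, a chaperone partner of steroid receptors, stayed within 1313.3 and 4862.3 on all arrays. Neither showed the gap between the untreated tumours that the Svs genes did.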
